A study of Mus musculus with 24 samples.

Results

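A set of 10 genes that mark endothelial cells was followed through mouse liver endothelial cultures in which P16 had been silenced or overexpressed: Pecam1, Cdh5, Mcam, Eng, Emcn, Flt1, Kdr, Tek, Stab2 and Lyve1. They were chosen by symbol among the protein-coding rows of the table, and all 10 were found among its 56748 genes. The cells were isolated with magnetic beads from the livers of C57BL/6 mice on Cd31 (the Cd31+ cultures, a general endothelial selection) or on Cd146 (the Cd146+ cultures, taken as sinusoidal endothelial cells). The animals are given as 3-month-old females. Cd31 is the protein of Pecam1 and Cd146 the protein of Mcam, so both genes also encode the handles of the selections. Each population was transduced with lentivirus carrying a non-coding hairpin (nc shRNA), a hairpin against P16 (P16 shRNA), an overexpression vector without insert (empty vector) or the same vector with a P16-GFP fusion (P16), and RNA was taken 1 week later. All 24 libraries therefore come from virus-treated, cultured cells, with 3 libraries in each of the 8 groups. The labels number the libraries 1 to 6, and the libraries of a group carry 3 of these numbers.

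Pecam1 and Cdh5 (VE-cadherin) are adhesion molecules of endothelial junctions, and Mcam and Emcn (endomucin) are glycoproteins of the endothelial surface. Eng (endoglin) is a co-receptor for ligands of the TGF-beta and BMP family. Flt1 and Kdr are receptors for VEGF and Tek is the receptor for the angiopoietins. Stab2 and Lyve1 bind hyaluronan, and in the liver they mark sinusoidal endothelial cells, the fenestrated cells that line the capillaries between hepatocytes.

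Promoter sequences are shown for Emcn and Mcam, which were nearly lost from 3 libraries described below, and for Eng and Flt1, which were kept in them. They are RefSeq promoters of GRCm38.p6, each the 250 bases before the gene's start, read 5′ to 3′ on the gene's strand, and capitals mark every GGAA or its complement TTCC, the core letters that ETS factors, regulators of endothelial genes, recognise. Of the 10 genes, 7 were in the RefSeq table, and Pecam1, Cdh5 and Lyve1 were not. The Emcn stretch lies at chr3:137340828-137341077 on the plus strand, that of Mcam at chr9:44134408-44134657 on the plus strand, that of Eng at chr2:32646345-32646594 on the plus strand and that of Flt1 at chr5:147726012-147726261 on the minus strand.
Emcn: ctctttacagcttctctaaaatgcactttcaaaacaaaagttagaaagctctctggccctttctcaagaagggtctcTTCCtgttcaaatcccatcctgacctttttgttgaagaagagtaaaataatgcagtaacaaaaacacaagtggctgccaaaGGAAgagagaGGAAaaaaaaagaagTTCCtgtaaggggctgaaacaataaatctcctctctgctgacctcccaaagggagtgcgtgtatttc
Mcam: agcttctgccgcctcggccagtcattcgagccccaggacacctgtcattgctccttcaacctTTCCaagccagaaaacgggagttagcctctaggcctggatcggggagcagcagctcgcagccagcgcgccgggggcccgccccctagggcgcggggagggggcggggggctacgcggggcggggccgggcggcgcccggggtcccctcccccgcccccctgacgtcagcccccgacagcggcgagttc
Eng: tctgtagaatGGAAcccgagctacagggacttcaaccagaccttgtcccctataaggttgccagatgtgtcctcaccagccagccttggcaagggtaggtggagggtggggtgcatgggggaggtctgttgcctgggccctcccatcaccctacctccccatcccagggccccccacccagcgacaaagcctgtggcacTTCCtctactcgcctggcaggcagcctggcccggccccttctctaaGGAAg
Flt1: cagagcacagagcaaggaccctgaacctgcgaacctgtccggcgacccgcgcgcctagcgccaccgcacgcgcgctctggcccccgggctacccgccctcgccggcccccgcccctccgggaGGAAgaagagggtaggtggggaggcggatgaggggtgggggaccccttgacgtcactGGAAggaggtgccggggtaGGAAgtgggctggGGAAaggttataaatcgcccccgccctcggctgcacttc
The Emcn stretch held 4 such cores, Mcam 1, Eng 3 and Flt1 4, and 93.4% of 32851 promoters of the same length held at least 1. The longer string AGGAAG, in which GGAA is contained, was found on either strand 2 times in Emcn, Eng and Flt1 and not in Mcam, and 29.5% of all promoters held it. These letters were thus found both in genes that were lost and in genes that were kept.

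Total counts per library ran from 15409767 to 26470392, and 3 counts correspond to 0.113 to 0.195 CPM. Cdkn2a, the gene that encodes P16, was at 5.1 to 25.7 CPM after TMM normalisation in the 6 P16 shRNA libraries against 36.2 to 196 in the 6 nc shRNA libraries, and at 137 to 834 in the 6 P16 libraries against 32.5 to 104 in the 6 empty vector libraries. The libraries also split in a way that the groups do not explain. Xist, which is transcribed from the inactive X chromosome of female cells, was at 327 to 761 CPM in 8 libraries, those numbered 4, 5 or 6, and at 0.225 or less in the other 16, those numbered 1, 2 or 3. The Y-linked Ddx3y was at 52.1 to 171 CPM in these 16 and at 0 in the 8. Of the 12 libraries of each population, 2 of the Cd31+ and 6 of the Cd146+ ones held Xist. The methods name female mice, so these transcripts go against that description for 16 libraries.

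The 10 genes spanned a wide range of levels. Per length, on the deposited FPKM scale, the median over the 24 libraries was highest for Eng at 72.6, followed by Mcam at 43.7, Emcn at 31.1, Cdh5 at 25.8 and Pecam1 at 22.9. Flt1 stood at 8.06, and Tek (0.996), Kdr (0.851), Lyve1 (0.416) and Stab2 (0.0451) lay far below. Within libraries Eng was above Mcam in 23 of 24 and Mcam above Emcn in 23 of 24. Emcn was above Cdh5 in only 13 of 24, Cdh5 above Pecam1 in 15 and Tek above Kdr in 11, so the order of these neighbours did not hold from library to library.

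**Figure D1:**
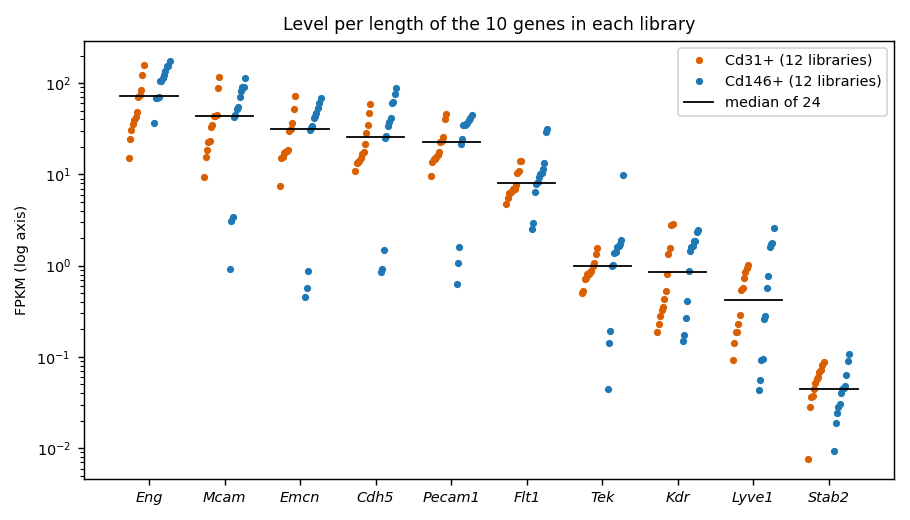
FPKM of the 10 genes in each of the 24 libraries on a log axis, with Cd31+ libraries in orange, Cd146+ libraries in blue and the median of the 24 as a black line. Genes run from Eng at a median of 72.6 to Stab2 at 0.0451, and 3 Cd146+ libraries fall far below the rest for Mcam, Emcn, Cdh5 and Pecam1.

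By median FPKM the sinusoidal pair, Lyve1 and Stab2, was lowest among the 10, with the receptors Kdr and Tek next above it. Stab2, a scavenger receptor of sinusoidal cells, had 1 to 21 counts in every library and was at or below 3 counts in 3 of them. Its highest level was 0.963 CPM, in empty vector library 4 of the Cd146+ cultures, and its median over the 6 Xist libraries of that population was 0.373 CPM. Lyve1 reached 7.53 CPM at most, in P16 library 5 of the Cd146+ cultures, and had 3 to 153 counts. Of 24 further sinusoidal genes, 3 to 9 were at or below 3 counts in a library. Among these 24, the highest means belonged to Thbd (thrombomodulin), Maf, Bmp6 and Gata4. In Cd31+ libraries Bmp6, a BMP ligand made by sinusoidal cells, was at 26.2 to 259 CPM. Gata4, listed as a transcription factor of these cells, was at 79.7 to 148 CPM there. In the 3 Cd146+ libraries of number 3, described below, Bmp6 was at 6.19 to 9.02 CPM against 89.2 to 290 in the other 9. Gata4 was at 112 to 138 CPM in these 3 and 55.1 to 164 in the 9, so it did not fall with Bmp6. Which cells the Gata4 transcripts came from was not tested.

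Markers of other cells were present beside the endothelial ones. The summed level of the 10 genes was 319 to 2153 CPM, and that of 16 mesenchymal and stellate genes 6766 to 51496 CPM, with Col1a1, a fibrillar collagen gene, alone at 461 to 19413. A list of 6 mesothelial genes summed to 141 to 1434 CPM, 16 macrophage genes to 18.8 to 429, 8 pericyte and smooth muscle genes to 58.9 to 478 and 7 cholangiocyte genes to 36.5 to 982. Of 8 hepatocyte and 7 lymphoid genes at least 5 were at or below 3 counts in every library, with sums of at most 2.84 and 0.590 CPM. In these bulk samples fewer endothelial cells and less endothelial RNA per cell cannot be told apart.

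**Figure D2:**
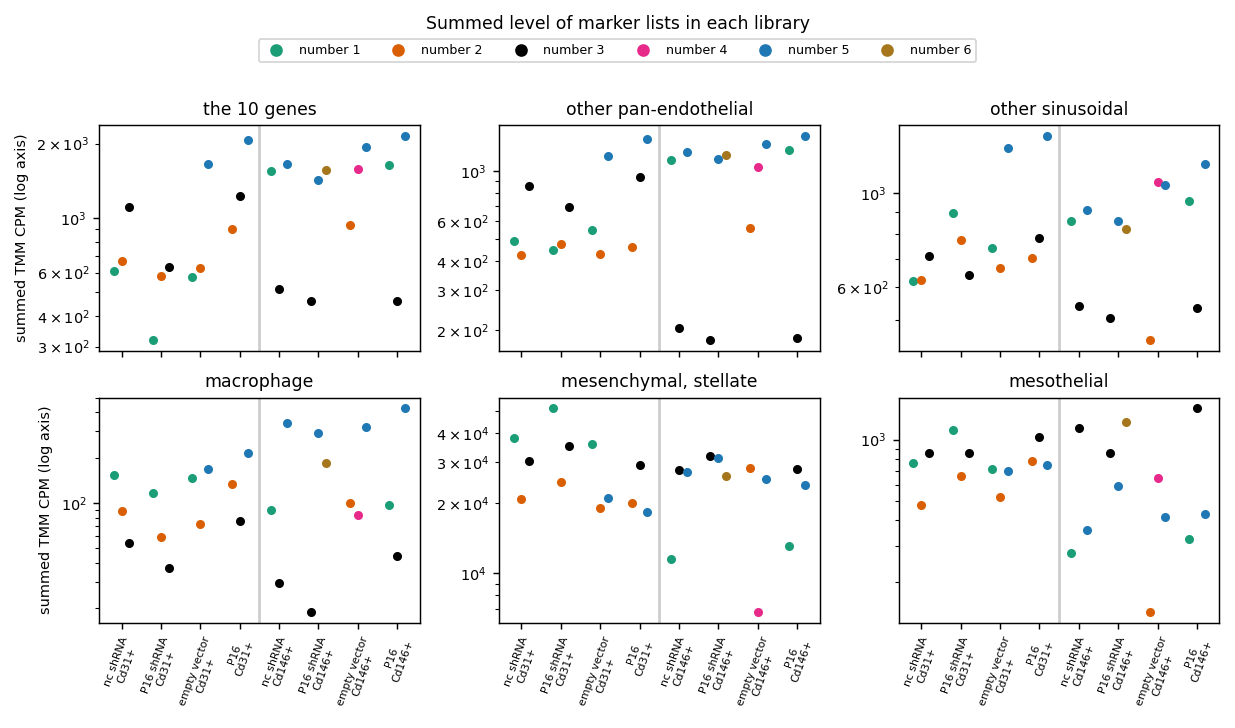
Summed TMM CPM of 6 marker lists in each library on log axes, by group and coloured by replicate number. The Cd146+ libraries of number 3 (black) are lowest in the pan-endothelial panel at 180 to 203 CPM, while the mesenchymal list stays between 27711 and 32053 in them.

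A group of 3 Cd146+ libraries stood apart in these genes. They carry number 3 and come from the nc shRNA, P16 shRNA and P16 groups. Emcn was at 4.88, 2.53 and 3.13 CPM in them, in that order of groups, against 169 to 367 in the other 9 Cd146+ libraries. Cdh5 read 6.34, 4.01 and 3.70 CPM against 107 to 367. The medians of the 3 were 75.4-fold lower for Emcn and 43.5-fold lower for Cdh5 than those of the 9. Pecam1 read 10.1, 4.05 and 6.84 CPM against 136 to 274, and its median was 32.4-fold lower. For Mcam the values were 11.6, 3.22 and 10.5 CPM against 144 to 386, and the median was 22.5-fold lower, although Cd146 was the handle of this selection. Each of these 4 genes still had 55 to 277 counts in these libraries, so the low values were not set by depth.

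The receptors divided. Eng was at 294, 285 and 288 CPM in the 3 libraries, inside the range of 149 to 704 of the other 9, and Flt1 at 186, 160.1 and 144 CPM, inside the range of 34.7 to 426. Kdr, in contrast, was at 2.46, 1.39 and 1.60 CPM against 3.78 to 22.1, and Tek at 0.918, 0.218 and 0.684 against 4.74 to 46.6. Lyve1 was at 0.167, 0.131 and 0.285 CPM, where a single other library reached as low as 0.275. Eng and Flt1 were thus within the range of the other 9 libraries, while the medians of Pecam1, Cdh5, Mcam, Emcn, Kdr and Tek were at 1.33% (Emcn) to 10.9% (Kdr) of the medians of the 9. In all, 6 of the 10 genes were lower in all 3 libraries than in each of the other 9, where this held for 7.35% of the 16524 genes that passed the filter on low counts. The libraries were singled out after their values were seen, so the contrast is a description without a test.

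The Cd31+ libraries of number 3 did not share this pattern. There Pecam1 was at 145, 94.3 and 162 CPM in nc shRNA, P16 shRNA and P16, within the range of the Cd31+ libraries. Of 27 other pan-endothelial genes over the filter, 21 were lower in all 3 Cd146+ libraries of number 3 than in each of the other 9 and none was higher. Myct1, an endothelial membrane protein, was at 0.697 to 3.09 CPM there against 29.4 to 229. Nrp1 (neuropilin-1, a co-receptor for VEGF) overlapped, with 60.5 to 77.1 against 55.5 to 306. Macrophage genes summed to 18.8 to 44.2 CPM against 82.9 to 429, and mesothelial genes to 859 to 1434 against 141 to 1223. The mesenchymal sum was 27711 to 32053 against 6766 to 31250. The part of these other cells in the loss of endothelial transcripts was not tested.

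**Figure D3:**
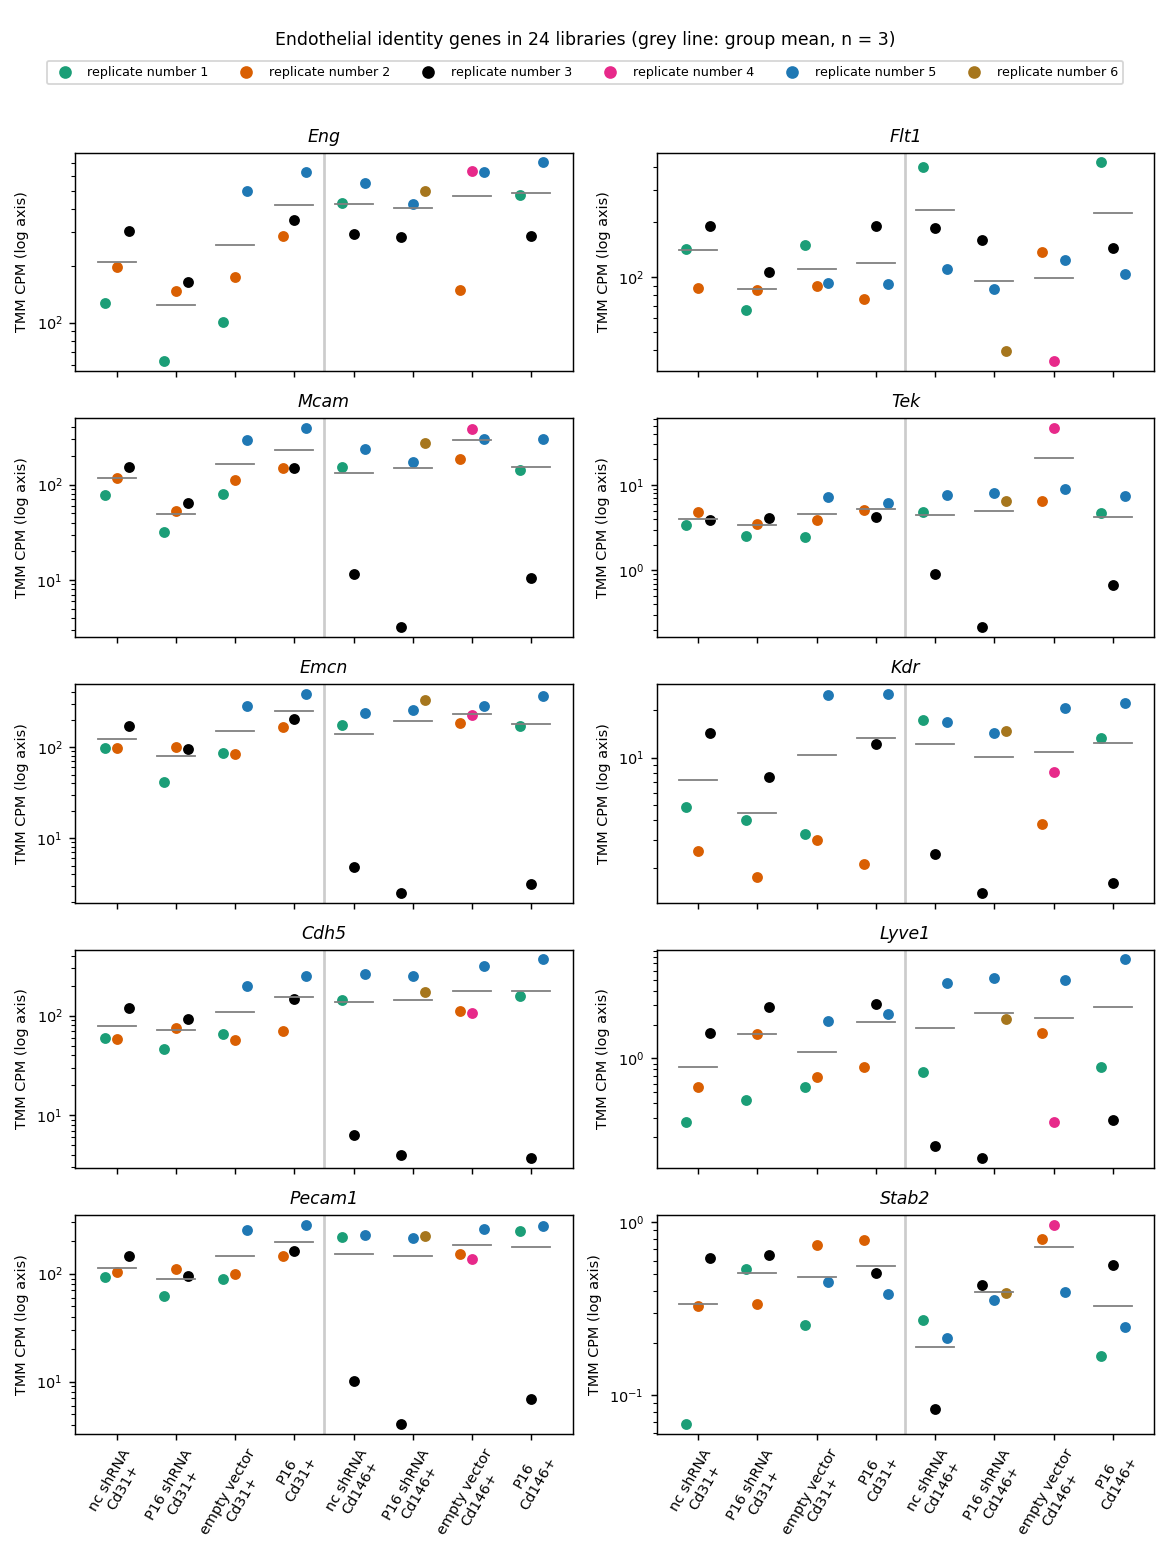
TMM CPM of each gene in the 24 libraries on log axes, 1 panel per gene, with points coloured by replicate number and grey lines for group means (n = 3). Black points of the Cd146+ groups lie far below the rest for Mcam, Emcn, Cdh5 and Pecam1 and within it for Eng and Flt1.

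Number 5 marked the other end. In Cd31+ cultures the 2 libraries of number 5 had the 2 highest values of Eng (495 and 629 CPM), Mcam (297 and 391), Emcn (284 and 387), Cdh5 (200.4 and 248), Pecam1 (251 and 281) and Kdr (25.0 and 25.4). The highest values in the other 10 Cd31+ libraries were 348 for Eng, 154 for Mcam, 203 for Emcn, 147 for Cdh5, 162 for Pecam1 and 14.3 for Kdr. Flt1 did not follow, at 93.3 and 92.0 CPM within a range of 66.1 to 192. These 2 are also the Cd31+ libraries with Xist, so number and Xist cannot be told apart here. Empty vector library 4 of the Cd146+ cultures stood apart in Tek alone among the 10, with 46.6 CPM where no other library exceeded 8.91, and it had the lowest Flt1, 34.7 CPM.

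Silencing of P16 in Cd31+ cultures was compared over 3 P16 shRNA and 3 nc shRNA libraries, all of them without Xist. Mcam, the Cd146 gene, was the member with the clearest difference. It read 77.5, 118 and 154 CPM in nc shRNA libraries 1, 2 and 3 and 32.2, 53.1 and 63.8 CPM in P16 shRNA libraries 1, 2 and 3. Every silenced library lay below every control, which held for 13.6% of the 14358 genes tested, and Mcam was the single member of which it held. The group means were 117 ± 38.5 and 49.7 ± 16.1 CPM (SD, n = 3). In edgeR's quasi-likelihood test the log2 difference was -1.23 (SE 0.34), with an unadjusted p of 0.0097 and a Benjamini-Hochberg adjusted p of 0.127, so Mcam did not pass. Among the 9 members tested (Stab2 fell under the filter) none passed, where 1.30% of all genes did, and Mcam alone had an unadjusted p under 0.05, where 19.8% of all genes did.

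Libraries that share a number resembled each other within a population, and the differences within numbers were tighter. Mcam was lower in all 3 pairs, by log2 values of -1.27, -1.16 and -1.28 in numbers 1, 2 and 3. With the number as a block its log2 difference was -1.24 (SE 0.09) with an edgeR adjusted p of 9.8e-05, and Mcam fell in this fit. Eng read 127, 198 and 306 CPM in the controls and 62.5, 146.5 and 163 in the silenced libraries, which overlap as groups. Its pairs differed by -1.02, -0.43 and -0.91 on the log2 scale. Without the block Eng had a log2 difference of -0.75 (SE 0.46) and an edgeR adjusted p of 0.417, and with it -0.79 (SE 0.12) and an adjusted p of 0.00297, so that Eng fell as well. These were 2 of 10 members tested, a share close to the 18.7% of all 14982 genes that passed in the blocked fit. This count of calls does not set the 10 apart as a list. Mcam was called in 3 more fits: DESeq2's Wald test (adjusted p = 0.00298), edgeR with all genes that had at least 1 count (adjusted p = 0.00291) and the block over the 12 libraries of the population (adjusted p = 3.4e-05).

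The other members gave smaller or less even values. Emcn was at 98.0, 97.5 and 172 CPM in the controls and 41.9, 101 and 94.7 after silencing, so 2 of 3 pairs were lower and the pair of number 2 differed by 0.06 on the log2 scale. Flt1 behaved likewise, with 143, 87.0 and 192 CPM against 66.1, 85.4 and 106 and a pair of number 2 at -0.03. Its adjusted p was 0.280 in the main edgeR test and 0.0668 with the block, while the edgeR fit with all genes that had at least 1 count called it (adjusted p = 0.00179). Pecam1 (92.7, 103 and 145 against 61.5, 111 and 94.3 CPM) and Cdh5 (59.3, 58.7 and 120.3 against 46.8, 74.7 and 92.5 CPM) were higher in number 2 and lower in numbers 1 and 3. Kdr was lower in all 3 pairs, by -0.26 to -0.92 on the log2 scale. Lyve1 had the opposite sign in all 3, by 0.66 to 1.55, at 4 to 61 counts. In the blocked fit 7 of the 10 had an unadjusted p under 0.05, 6 of them lower and Lyve1 higher, where 33.2% of all genes had one.

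**Figure D4:**
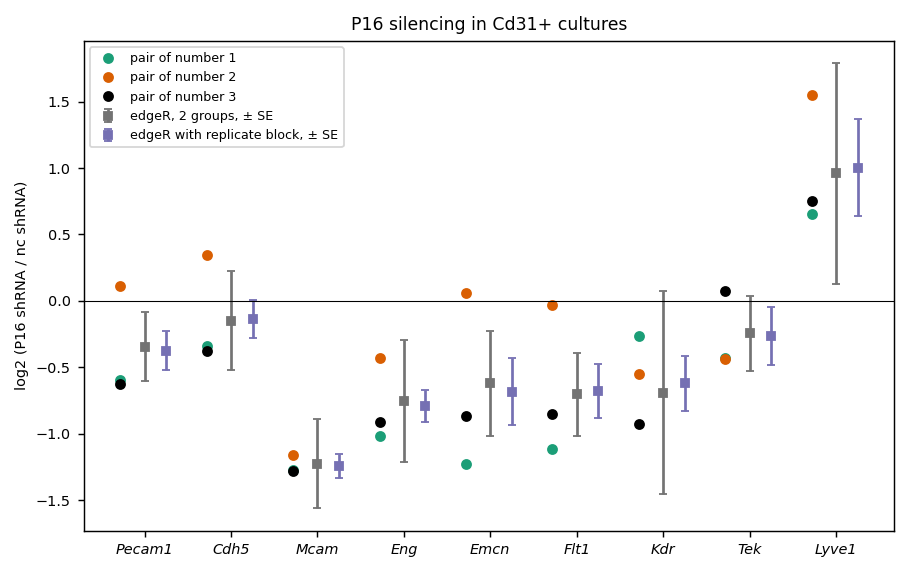
Log2 ratio of P16 shRNA to nc shRNA in Cd31+ cultures for the 9 members tested, with a point for each same-numbered pair and squares for the edgeR estimates without and with the replicate block (± SE). The 3 Mcam points lie together at -1.28 to -1.16, while for Pecam1, Cdh5, Emcn and Flt1 the pair of number 2 stands off from the other two.

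Of the members tested without the block, 8 of 9 had a negative estimate and their median was -0.62 on the log2 scale, beside 49.7% of all genes with a negative estimate and a median of 0.00. The other 30 pan-endothelial genes did not lean as far: 16 of 26 tested were negative with a median of -0.21, and none passed. With the block 3 of the 26 fell and 1 rose, beside the 18.7% of all genes that passed in that fit, and the counts of calls in the lists that follow are to be read against the same share. Mmrn2 (-0.87), a matrix protein of vessels, Nrp1 (-0.43) and Myct1 (-0.68) were lower, and Flt4, the receptor for the lymphatic VEGF ligands, was higher by 1.23 on the log2 scale. Of 19 sinusoidal genes 4 fell with the block, Bmp6 (-0.89), Ehd3 (-0.90), Cd36 (-1.57) and Maf (-0.34), and Thbd rose by 0.96, with a median over the 19 of -0.09 on the log2 scale. Among 11 ligands of the endothelial receptors, 2 fell and 2 rose. Angpt2, an angiopoietin that binds Tek, fell by 0.87 on the log2 scale and Apln fell by 0.82. Vegfc, a ligand of Flt4, rose by 0.71 and Sema3c rose by 0.64. The adhesion molecule Icam1 fell by 1.15, as did the Notch target Hes1 by 0.63. Without the block no gene of any of these lists passed in this comparison.

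Markers of other cells moved in the same pairs. With the block, Col3a1 (0.83) and Col1a2 (0.53), both fibrillar collagen genes, Pdgfra (0.48) and Postn (0.34) were higher after silencing on the log2 scale, and Thy1 was lower (-1.29). These are the 5 calls among 13 mesenchymal genes tested. Of 9 macrophage genes, 4 had a negative and 5 a positive estimate, and the calls were Lyz2 (-0.90) and Mertk (-0.92), both lower. Of 6 mesothelial genes Wt1 (0.84), Upk1b (0.60) and Gpm6a (0.33) rose and Krt19 (-1.93) fell. The pericyte genes Rgs5 (-1.16) and Notch3 (-0.46) were lower, 2 of 5 tested, and the cholangiocyte gene Krt7 (1.91) was higher, 1 of 4. Krt7 was low, at a median of 0.855 CPM (0.0984 to 12.9) over the 12 Cd31+ libraries. The mesenchymal sum was 20742 to 38089 CPM in nc shRNA and 24744 to 51496 in P16 shRNA libraries, and the macrophage sum 54.1 to 154 and 37.0 to 117. The sum of the 10 endothelial genes was 606 to 1111 and 319 to 630 CPM. The part of a shifted mix of cells in the lower Mcam and Eng was not tested.

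Overexpression of P16 in Cd31+ cultures was compared over P16 libraries 2, 3 and 5 and empty vector libraries 1, 2 and 5. All 10 estimates were positive, with a median of 0.47 on the log2 scale beside 0.01 over all 14565 genes tested. The lean was not particular to the 10. Positive estimates were found for 23 of 26 other pan-endothelial genes (median 0.53), 12 of 18 sinusoidal genes (0.12) and 9 of 10 macrophage genes (0.23). In the list of Notch, arterial and tip cell genes 7 of 13 were positive. Eng was at 101, 174 and 495 CPM with the empty vector and at 287, 348 and 629 CPM with P16. Emcn read 85.5, 83.4 and 284 against 165, 203 and 387 CPM. In both genes the groups overlapped, because empty vector library 5 lay above P16 libraries 2 and 3. The log2 differences were 0.72 (SE 0.63) for Eng and 0.74 (SE 0.59) for Emcn, each with an edgeR adjusted p of 0.947. Without empty vector library 5 they were 1.63 (SE 0.45) and 1.60 (SE 0.41) with an edgeR adjusted p of 0.674 each. In that fit 5 of the 10 were higher at an unadjusted p under 0.05, where 3.42% of 14930 genes were. Empty vector library 5 had the highest control values of Eng and Emcn, so leaving it out lowers the control mean. It also leaves P16 library 5 without a same-numbered control, so the 5 genes are no independent support for a higher level. Without P16 library 5 the log2 differences were 0.29 for Eng and 0.27 for Emcn. With all 6 libraries no member had an unadjusted p under 0.05 or groups that did not overlap, where 3.73% and 10.7% of all genes did, and no gene of the table passed the adjusted test (0% called).

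The control group holds 1 Xist library of 3 and so does the P16 group. With a term for Xist, chosen after the data were seen, 4 members had an unadjusted p under 0.05 in edgeR, where 836 of 15247 genes had one. These were Emcn (0.90, SE 0.18), Eng (0.92, SE 0.28), Mcam (0.56, SE 0.16) and Pecam1 (0.54, SE 0.16). Their unadjusted p-values in edgeR were 0.0022 to 0.0160, with an adjusted p of 0.791 each, and 0 genes of the table were called. In the same-numbered pairs Emcn differed by 0.99 and 0.45 on the log2 scale in numbers 2 and 5, Eng by 0.72 and 0.35 and Mcam by 0.40 in both. Flt1 went the other way at -0.24 and -0.02, and Kdr (-0.51 and 0.02), Tek (0.39 and -0.24) and Stab2 (0.10 and -0.24) were of mixed sign. The replicate block called none of the 10 either, where it called 77 of 16162 genes. The lowest edgeR adjusted p among the 10 was 0.129, for Emcn.

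Silencing of P16 in Cd146+ cultures involved 2 of the 3 libraries of number 3, 1 in each group. Mcam was at 151, 11.6 and 237 CPM in nc shRNA libraries 1, 3 and 5 and at 3.22, 172 and 272 CPM in P16 shRNA libraries 3, 5 and 6. Its log2 difference of 0.17 carried an SE of 1.44. Within the 2 shared numbers Mcam was lower after silencing, by -1.84 in number 3 and by -0.47 in number 5 on the log2 scale. With the replicate block over the 12 libraries of the population the difference was -1.01 (SE 0.29), with an unadjusted p of 0.0153 and an edgeR adjusted p of 0.104. That block moved the count of genes called from 0 to 1340 of 17597, with no call among the 10. The block over the 2 groups alone called 0.

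Eng hardly differed between the groups, with 429.5, 294 and 545 CPM in the controls and 285, 425 and 496 CPM in the silenced libraries. Its log2 difference was -0.07 (SE 0.31), and within shared numbers it differed by -0.04 in number 3 and -0.36 in number 5. Flt1 had the largest estimate, -1.29 (SE 0.64, edgeR adjusted p = 0.465), from 401, 186 and 111 CPM against 160.1, 86.2 and 39.5 CPM. Within shared numbers, however, Flt1 differed by -0.22 and -0.37. Control library 5 and silenced libraries 5 and 6 hold Xist, so the groups differ in their share of Xist libraries. Over the Cd146+ cultures the median of Flt1 was 173 CPM in libraries without Xist and 95.2 CPM in those with it, so Xist and construct are partly mixed in this estimate. None of the 9 members tested passed, where 0% of genes did. None had an unadjusted p under 0.05 (11.6% of all genes) and none had groups that did not overlap (20.5% of all genes). Stab2, below the filter here, had 5, 2 and 4 counts in the controls and 10, 10 and 8 after silencing.

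Overexpression of P16 in Cd146+ cultures gave no call among the 10 or in the table (0% called). Pecam1 was at 153, 136 and 259 CPM in empty vector libraries 2, 4 and 5 and at 248, 6.84 and 274 CPM in P16 libraries 1, 3 and 5. Cdh5 read 112, 107 and 317 CPM against 159, 3.70 and 367 CPM. Their log2 differences were -0.04 (SE 1.10) and 0.00 (SE 1.29), and these intervals leave room for differences of either sign. Tek had the largest estimate, -2.25 (SE 1.08, edgeR adjusted p = 0.986), which rests on empty vector library 4: its 46.6 CPM stood beside 6.59 and 8.91 in that group and 4.74, 0.684 and 7.44 with P16. No member had an unadjusted p under 0.05 or separate groups, where 3.53% and 8.55% of all genes did. Number 5 is the one number shared, and there Pecam1, Cdh5, Eng and Emcn differed by 0.08, 0.21, 0.18 and 0.36 on the log2 scale. Empty vector libraries 4 and 5 and P16 library 5 hold Xist, and number 3 is in the P16 group alone. The groups are therefore balanced in neither respect.

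The effects of the constructs were compared between populations by an interaction in a fit over the 24 libraries. For silencing, the Cd146+ effect minus the Cd31+ effect was 1.39 (SE 1.56) for Mcam and 0.69 (SE 0.82) for Eng on the log2 scale. No member passed (0% of genes called) or had an unadjusted p under 0.05, where 1.20% of all genes had one. For overexpression Tek had the largest difference of effects, -2.45 (SE 1.35), with an edgeR adjusted p of 0.989. Again no member passed, with 0% of genes called and 3.82% at an unadjusted p under 0.05. The lower Mcam in Cd31+ cultures was therefore not shown to be particular to them.

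The 2 populations were compared as the mean over the 4 constructs, 12 libraries each. Eng was the member with the clearest difference, at a median of 186 CPM (62.5 to 629) in the 12 Cd31+ libraries and 450.2 CPM (149 to 704) in the 12 Cd146+ libraries. Over all 24 libraries its log2 difference was 0.95 (SE 0.29), higher in Cd146+, with an unadjusted p of 0.0045 and an edgeR adjusted p of 0.0579. None of the 10 passed, where 6.61% of 16524 genes did, and Eng was the 1 member with an unadjusted p under 0.05, where 25.0% of genes had one. Leaving out 1 library at a time brought Eng past the threshold for 4 libraries: Cd31+ nc shRNA 3 (edgeR adjusted p = 0.0473), Cd31+ empty vector 5 (0.0186), Cd146+ P16 shRNA 3 (0.0474) and Cd146+ empty vector 2 (0.0259).

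The estimates for the junctional and surface genes depended on which libraries entered. Without the 3 Cd146+ libraries of number 3, a set chosen after the data were seen, Pecam1 (0.75, SE 0.20), Cdh5 (1.10, SE 0.31), Mcam (0.92, SE 0.27), Eng (1.11, SE 0.32) and Tek (1.03, SE 0.31) were higher in Cd146+ with edgeR adjusted p-values of 0.0301 to 0.0437, and Emcn (0.84, SE 0.26) missed at 0.0503. That is 5 of 10, where 11.5% of 16890 genes passed. Leaving out libraries for low values of these genes raises the remaining mean, so the 5 calls are no independent support for a higher level. Both populations also differ in their share of Xist libraries. Of the 6 Cd146+ libraries without Xist, 3 are those of number 3, in which Pecam1, Cdh5, Mcam and Emcn were low. Within the 16 libraries without Xist no member passed, where 1039 of 15650 genes did. Pecam1 (-0.35, SE 0.79), Cdh5 (-0.39, SE 0.81), Mcam (-0.71, SE 0.69) and Emcn (-0.71, SE 0.89) had the opposite sign, Eng was at 0.62 (SE 0.25, adjusted p = 0.144 in edgeR) and Flt1 at 0.89 (SE 0.29, adjusted p = 0.0824).

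Within the 8 libraries with Xist none passed either, where 0 of 17146 genes did. Eng was at 0.26 (SE 0.17), Pecam1 at -0.22 (SE 0.29), Mcam at -0.06 (SE 0.28) and Emcn at -0.13 (SE 0.20) on the log2 scale. In the 13 libraries without Xist and outside number 3 of Cd146+, Pecam1 alone of the 10 passed, where 1174 of 15916 genes did. Pecam1 was at 0.80 (SE 0.17) with an edgeR adjusted p of 0.0210, and Flt1 (1.21, SE 0.36) missed at 0.0670. Eng was positive in all 5 sets of libraries, by 0.26 to 1.11, though below the threshold in 4 of them. Stab2 was at -0.36 (SE 0.31) over the 24 libraries.

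**Figure D5:**
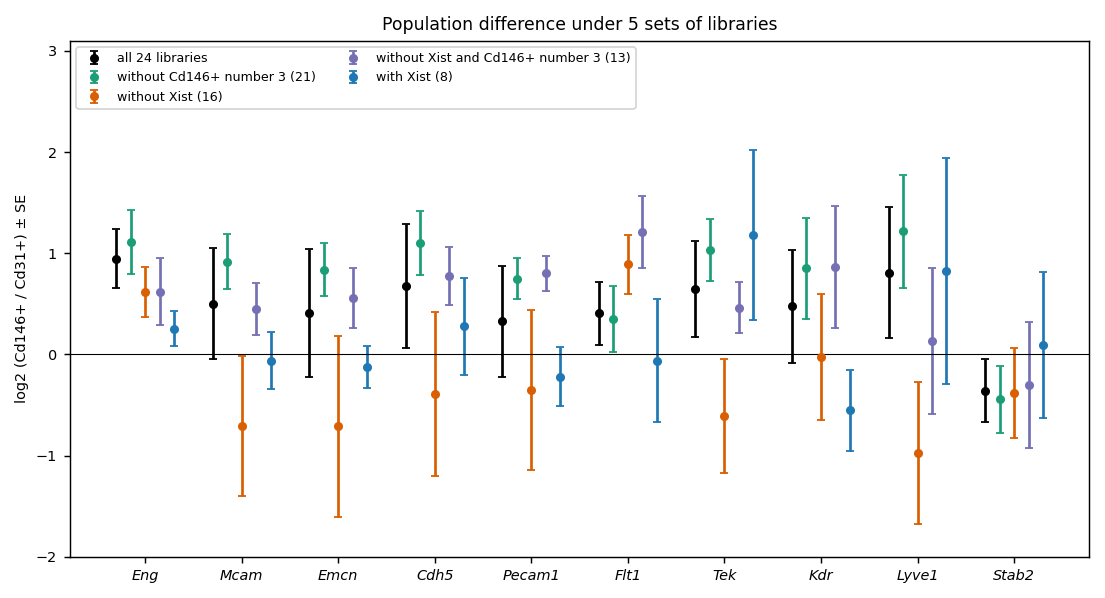
Log2 ratio of Cd146+ to Cd31+ with its SE for each gene in 5 sets of libraries, fitted with edgeR. Eng stays above 0 in each set, from 0.26 to 1.11, while Mcam, Emcn, Cdh5 and Pecam1 change sign between sets.

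The genes fell into those that varied together and those that did not. Over the 24 libraries, on log2(CPM + 1), the Pearson r between Pecam1 and Emcn was 0.988 (Spearman 0.929), between Pecam1 and Cdh5 0.977 (0.940) and between Mcam and Emcn 0.966 (0.944). Without the 3 Cd146+ libraries of number 3 these r were 0.931, 0.925 and 0.926 over 21 libraries. Eng depended on those 3 libraries: its r was 0.349 to Pecam1, 0.374 to Emcn and 0.484 to Mcam over the 24 libraries and 0.908, 0.916 and 0.899 over the 21. Flt1 ran apart, with an r of -0.12 to Pecam1, 0.01 to Eng and -0.45 to Tek. The libraries share numbers, populations and depth, so these r describe the set and are given without a test.

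Among 12161 other protein-coding genes with a mean of at least 1 CPM, the genes most like Pecam1 were Emcn, Cdh5 and Bst1 (r = 0.971), a surface enzyme that was also closest to Mcam (0.968). Cdh5 was nearest to S1pr1 (0.978), a receptor for sphingosine-1-phosphate, and also near Sox7 (0.976), an endothelial transcription factor. The nearest to Kdr were Npr1 (0.960), the receptor kinase Tie1 (0.956) and Ptprb (0.950), the vascular phosphatase that acts on Tek. The nearest to Eng over the 24 libraries were Plau (0.907), the gene of urokinase, Rspo3 (0.905) and Gpc4 (0.883), and over the 21 libraries the r to Plau was 0.925, close to those of Emcn and Pecam1. Flt1 was nearest to Ak5 (0.896), Mrtfa (0.890) and Tlr5 (0.889), none of which neighboured another member. For Tek the nearest were Fam3c (0.947), Pdgfd (0.940) and Stk40 (0.933), for Lyve1 Hspb7 (0.916), Erc2 (0.915) and Arap3 (0.907), and for Stab2, at counts near the floor, no gene exceeded Olfm2 (0.755).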

How the data were processed

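RNA was sequenced in 24 libraries, 3 in each of 8 groups, after poly-A selection. Per the labels, reads were trimmed with fastp and mm9 is the build named. The aligner, the counter and the strand setting are not given in the sources used here. The authors deposited, for 56748 genes, whole read counts per gene and FPKM, which equalled count divided by gene length times a constant per library. Gene starts in the table lay within 1000 bases of those of GRCm38 for 3.37% of 21863 protein-coding genes, so no coordinates of the table are printed. The table also holds the group means, fold changes and p-values of the comparisons its authors made, which were not used. Between any 2 libraries at most 0.597% of the genes over 100 counts had equal counts.

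The deposited counts were tested with edgeR 4.0.16 (R 4.3.3): filterByExpr, TMM, the robust quasi-likelihood test, all two-sided, and Benjamini-Hochberg adjustment over all genes tested, with calls at an adjusted p under 0.05. SE is the estimate divided by the root of F. Each construct was compared with its control in 6 libraries, and the population contrast and interactions used all 24. Alternatives were DESeq2 1.42.0, its size factors, other filters, other library sets, a replicate block and leaving out each library. No source states that libraries are separate animals, so p-values measure the spread between libraries. Floors of 3 counts cover counting error only.

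The numbers in the labels were taken to pair libraries within a population: deviations from group means correlated by at least 0.358 in each of 13 same-numbered Cd31+ pairs and by at least 0.333 in each of 10 Cd146+ pairs. Their medians were 0.588 and 0.695. Pairs of different numbers ran from -0.497 to 0.482 in Cd31+ (median -0.18, 41 pairs) and from -0.709 to 0.441 in Cd146+ (median -0.08, 44 pairs), so the ranges overlapped. Across populations the lowest of 27 same-numbered pairs was -0.06, although the 8 of number 5 were at 0.272 to 0.598. Numbers were therefore not taken to pair libraries there. The replicate block over 24 libraries does pair them and is given as an alternative only.

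The 10 genes, the gene lists and the tests were chosen with earlier results of these data known. Named in the text were the 10 genes, the 4 genes of each list with the highest mean CPM or genes of a list that a fit called, and the 3 genes most correlated with each member. Mmrn2, Flt4, Ehd3, Angpt2, Apln, Vegfc, Sema3c, Hes1, Pdgfra, Postn, Thy1, Cd36, Rgs5, Wt1, Krt19 and other genes given as calls of the blocked fit were named after their values in the blocked fit were seen, as were Xist and Ddx3y.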

Additional observations from a re-analysis of the deposited data

How the results depend on the processing

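The values that touch the 10 genes depended mostly on whether libraries were paired by number and on which libraries entered. Over the 7 comparisons and all members, 459 of 541 estimates kept their sign and their side of the threshold under the other settings, 68 changed sign and 14 became calls. On leaving out 1 library at a time, 875 of 948 kept both, 69 changed sign and 4 became calls. No estimate that changed sign was a call. Where no cause is named below, the cause was not tested. With 3 libraries a group the spread between libraries sets the precision, and for Stab2, at 1 to 21 counts a library, and the lowest values of Lyve1 depth does so as well.

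For silencing in Cd31+ cultures the count of genes called was 186, and it was 1294 (2 members) with all genes that had at least 1 count, 1103 (1 member) with DESeq2's Wald test, 373 in 1 fit over 12 libraries, 2799 (2 members) with the replicate block over the 2 groups and 2607 (2 members) with the replicate block over 12 libraries. Leaving out 1 library gave 0 to 64 genes, with fewer samples in each fit. Cdh5 then ranged from -0.38 to 0.28 and Kdr from -1.31 to 0.28.

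For overexpression in Cd31+ cultures 0 genes were called, against 10 with all genes that had at least 1 count, 4 with DESeq2, 77 with the replicate block over the 2 groups and 1 with the block over 12 libraries. Mcam ranged from -0.15 to 1.28 when 1 library was left out, the lowest without P16 library 5 and the highest without empty vector library 5.

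For silencing in Cd146+ cultures the 0 genes called became 19 with all genes that had at least 1 count, 333 with DESeq2, 11 in 1 fit over 12 libraries and 1340 with the replicate block over 12 libraries. Mcam changed sign to -1.05 with the replicate block over the 2 groups, -1.01 with that over 12 libraries and -2.30 with a term for Xist, chosen after seeing the data. Leaving out 1 library gave Mcam -0.60 to 0.88 and Eng -0.28 to 0.16.

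For overexpression in Cd146+ cultures 1 gene was called with DESeq2 and 2 with the replicate block over 12 libraries, against 0. Pecam1 became 0.0620 and Cdh5 0.0299 with that block, and 0.12 and 0.18 with the term for Xist. Leaving out 1 library gave Pecam1 -0.53 to 0.53 and Cdh5 -1.15 to 0.72. No replicate block with the 2 groups could be fitted because they share 1 number.

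For Cd146+ against Cd31+ the count of 1093 genes became 431 with all genes that had at least 1 count, 2042 (1 member, Eng) with DESeq2, 1800 with a replicate block over 24 libraries and 0 within the 12 control libraries. Leaving out 1 library gave 432 to 1650 genes and 0 to 1 members. The replicate block over 24 libraries turned Pecam1 to -0.73, Cdh5 to -0.58, Mcam to -0.73, Emcn to -0.92 and Tek to -0.38. That block also pairs equal numbers across populations, which the correlations did not bear out for every number. The following sets were chosen after seeing the data. A term for Xist turned the same genes to -0.20, -0.20, -0.30, -0.33 and -0.18. Without the Cd146+ libraries of number 3 there were 1942 genes and 5 members. Within the libraries without Xist these genes were at -0.35, -0.39, -0.71, -0.71 and -0.61. Dropping number 3 of Cd146+ as well gave 1174 genes and 1 member. Within the libraries with Xist 0 genes were called, with Pecam1 at -0.22, Mcam at -0.0620, Emcn at -0.13, Flt1 at -0.0604 and Stab2 at 0.0932.

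The difference between populations in the overexpression effect had 3 genes called with DESeq2, 13 with a replicate block within each population and 0 to 12 when 1 library was left out, against 0. In the fits with the replicate block no call changed among the 10 other than those of Mcam and Eng in Cd31+ silencing.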

Other observations

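The ligands and activation genes of the endothelial lists also differed between the 3 Cd146+ libraries of number 3 and the other 9, which is given as values without a test since those libraries were singled out for their levels. Icam1 and Sele (E-selectin), adhesion molecules of activated endothelium, were at 4.92 to 10.3 and 1.42 to 1.96 CPM in the 3 libraries, against 97.1 to 209.7 and 14.1 to 38.9 in the 9. Vcam1, an adhesion molecule that mesenchymal cells also make, was at 302 to 723 against 170.1 to 415 CPM. Selp (P-selectin) overlapped, with 82.4 to 135 against 78.8 to 323 CPM. Among ligands, Vegfd, which binds Flt4, was at 283 to 355 CPM in the 3 libraries and 102 to 232 in the 9. Sema3a, a ligand of neuropilin-1, was at 134 to 172 against 7.47 to 94.3 CPM, and Angptl2 was lower, at 13.4 to 30.9 against 50.02 to 137 CPM. Vegfa, the main ligand of Flt1 and Kdr, overlapped at 140.3 to 189 against 136 to 330 CPM. The mesothelial gene Msln was at 247 to 611 against 9.45 to 156 CPM. Of 19 sinusoidal genes over the filter, 6 were lower in all 3 libraries than in each of the 9 and 0 were higher, where 7.35% of all genes were lower. Of the 4 most abundant in that list, Bmp6 was at 6.19 to 9.02 against 89.2 to 290.1 CPM, while Maf (112 to 244 against 46.4 to 134), Gata4 (112 to 138 against 55.1 to 164) and Thbd (108 to 236 against 130.5 to 343) overlapped.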
